A study of Homo sapiens with 118 samples.

Results

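The clustered replication-dependent histone genes were taken as every row of the count table whose symbol began with HIST1H, HIST2H, HIST3H or HIST4H. The rule found 59 rows for 58 genes, of 22068 rows for 19470 gene symbols in all, because HIST1H2BJ had 2 probes. By the symbols, 6 rows were for linker histone H1, 12 for H2A, 12 for H2B, 14 for H3 and 15 for H4. The HIST1 cluster gave 45 rows, HIST2 10, HIST3 3 and HIST4 1. The gene names printed here are the older symbols that the table uses. Expression was measured by TempO-Seq, in which pairs of probes are ligated on their target RNA and counted by sequencing, in differentiated HepaRG cells. HepaRG is a human liver tumour line that is differentiated into hepatocyte-like and biliary-like cells, so every library stems from 1 line.

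The cells were exposed for 72 h, with daily renewal, to 1 of 8 inhibitors of histone deacetylases. Each was given at 5 concentrations, here called C1 to C5 from the lowest up. The C1 and C5 concentrations were 0.0417 and 0.86 µM for apicidin, 0.177 and 3.9 µM for mocetinostat, 0.00147 and 0.084 µM for panobinostat, and 4.94 and 94.5 µM for scriptaid. They were 1.14 and 44 µM for tacedinaline, 0.0188 and 1.52 µM for trichostatin A, and 0.405 and 23.5 µM for vorinostat. For valproic acid the dose labels gave 100.5 and 3038, and the unit of these values differed between labels. There were 118 libraries in 40 groups, with 3 libraries (HepaRG batches 1, 2 and 3) in 38 groups. The other 2 groups, trichostatin A C4 and panobinostat C3, held 2 libraries and lacked batch 3. No solvent-control library was used here, and C1, which was itself treated, served as the reference of each chemical.

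Replication-dependent histone genes lie together in clusters and are transcribed mainly in S phase, when new DNA is packed into nucleosomes. Their messages usually end in a stem-loop that is bound by SLBP rather than in a poly(A) tail, although some of these genes also give polyadenylated transcripts in cells that do not divide. Because TempO-Seq probes bind the RNA itself, detection does not need a poly(A) tail. Several of these genes are nearly identical in sequence, and a probe for one may bind the message of another, so values for close copies (HIST2H4A and HIST2H4B, HIST2H2AA3 and HIST2H2AA4) are uncertain in that respect.

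Total counts per library ranged from 1061359 to 5250260, with a median of 3702000. All 12 rows of 10 hepatocyte markers were detected (ALB median 15140 normalised read count in CPM, counts scaled to a common library size), and their sum ranged from 3145 to 72380 CPM. The summed biliary and progenitor markers (8 rows, 3 of them with a median of 0, EPCAM included) ranged from 56.6 to 251 CPM and the mesenchymal ones (10 rows, 3 with a median of 0) from 40.5 to 183 CPM. Leukocyte and endothelial markers, among them PTPRC at 0, summed to at most 19.2 and 16.7 CPM. Trichostatin A C1 batch 3 stood apart, since its summed hepatocyte markers were at 14040 CPM against 56050 and 59530 CPM in batches 1 and 2. Scriptaid C4 batch 3 and mocetinostat C2 batch 3 correlated least with the other libraries of their groups (mean r of 0.797 and 0.821, against a median of 0.961 over all libraries). Each row was tested with edgeR's quasi-likelihood test within its chemical, on counts scaled with its TMM factors (trimmed means of M values), and was called when its Benjamini-Hochberg adjusted p over all rows tested lay under 0.05 with a change of 1.5-fold or more. Changes are log2 values of C5 against C1, with their standard error (SE), unless another concentration is named. CPM values are on the scaled library sizes, and levels are not compared between probes. In these lysates fewer cells that make histone RNA and less of it per cell cannot be told apart.

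Upstream sequence of the genes was taken from RefSeq, to show where the 5 histone types differ and which promoters belong to genes whose probes gave opposite changes. Of the 58 genes, 56 matched 1 RefSeq gene through its symbol or synonyms and 52 had a promoter window. Genes had up to 2 windows, and a gene was counted when any of its windows held the motif. In the 250 bases before the start, on both strands, CCAAT was found for all 39 H1 (6), H2A (12), H2B (9) and H3 (12) genes. It was found for 3 of 13 H4 genes. The share was 37.0% of the 27305 genes with a window. The motif TATAAA was found in 36 of 52 members and in 13.0% of all genes. The octamer ATTTGCAT was found in 8 of 12 H2A, 7 of 9 H2B, 1 of 12 H3, 0 of 6 H1 and 0 of 13 H4 genes, against 2.03% of all genes. In the sequences below (RefSeq, GRCh38.p14, 5′ to 3′ on the strand of the gene) the capitals mark these 3 motifs or their reverse complements. A match is a description of letters only.

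The HIST2H4A (chr1:149832407-149832656, plus strand) and HIST2H4B (chr1:149861160-149861409, minus strand) windows are shown because the probes for these close copies gave opposite changes in apicidin and vorinostat. The HIST2H4A rise in vorinostat is a description without a test. The windows were identical in 250 of 250 bases and held none of the 3 motifs.
HIST2H4A and HIST2H4B: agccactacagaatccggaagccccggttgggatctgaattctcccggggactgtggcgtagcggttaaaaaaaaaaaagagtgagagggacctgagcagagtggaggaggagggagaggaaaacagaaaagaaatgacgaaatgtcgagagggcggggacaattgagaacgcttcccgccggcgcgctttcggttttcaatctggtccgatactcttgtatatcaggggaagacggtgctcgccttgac
HIST2H2AB (chr1:149887966-149888215, minus strand) and HIST2H2BE (chr1:149886683-149886932, minus strand) are neighbours. In the C5 libraries of mocetinostat the first was lower and the other higher, the latter as a description without a test. Both windows held the octamer, CCAAT and TATAAA.
HIST2H2AB: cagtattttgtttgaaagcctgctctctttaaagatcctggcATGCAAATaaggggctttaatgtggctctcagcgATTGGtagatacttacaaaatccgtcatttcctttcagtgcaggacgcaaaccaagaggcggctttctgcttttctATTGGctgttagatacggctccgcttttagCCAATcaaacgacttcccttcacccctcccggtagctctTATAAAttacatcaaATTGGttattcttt
HIST2H2BE: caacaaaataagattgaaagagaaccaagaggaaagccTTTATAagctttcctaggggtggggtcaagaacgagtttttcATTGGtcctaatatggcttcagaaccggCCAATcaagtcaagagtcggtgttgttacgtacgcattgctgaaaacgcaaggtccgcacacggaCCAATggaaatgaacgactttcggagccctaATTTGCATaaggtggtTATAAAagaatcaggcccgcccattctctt
HIST1H1B (chr6:27867589-27867838, minus strand) and HIST1H2BJ (chr6:27132796-27133045, minus strand) are shown because they fell in the most chemicals. In HIST1H2BJ the forward and the reverse TATAAA matches far from the start overlap.
HIST1H1B: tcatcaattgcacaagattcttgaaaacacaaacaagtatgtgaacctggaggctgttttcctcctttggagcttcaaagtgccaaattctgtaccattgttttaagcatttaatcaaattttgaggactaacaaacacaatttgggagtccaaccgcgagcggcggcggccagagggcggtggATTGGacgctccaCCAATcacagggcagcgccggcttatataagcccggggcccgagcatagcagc
HIST1H2BJ: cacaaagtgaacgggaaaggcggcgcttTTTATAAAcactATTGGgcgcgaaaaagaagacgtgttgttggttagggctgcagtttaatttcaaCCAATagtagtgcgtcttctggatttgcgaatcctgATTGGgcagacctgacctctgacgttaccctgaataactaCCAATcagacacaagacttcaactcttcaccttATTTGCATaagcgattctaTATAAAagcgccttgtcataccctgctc

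Between 39 and 44 of the 59 rows passed the filter on low counts in a given chemical. Of the rows, 39 passed in all 8 chemicals, 6 in 1 to 7 and 14 in none. The 14 untested rows had a median count of at most 2 and no count above 20, and included the testis histones HIST1H1T, HIST1H2AA and HIST1H2BA. A row that passed in some chemicals only, such as HIST2H2BE or HIST1H3J, could pass through a group where it was high, and then had to differ. Low rows that passed in all 8, such as HIST2H4A and HIST1H4G (median counts 14 and 8), could also do so in single chemicals. HIST2H2BE passed in 4 chemicals and HIST1H3J in 6, and their values are given below as a description without a test. They account for 2 of the rising calls counted in mocetinostat, 2 in tacedinaline and 1 in scriptaid.

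The summed level of the 59 rows was lower in every C5 library than in every C1 library of apicidin and vorinostat, and was higher at C3 than at C1 or C5 in scriptaid. In apicidin the 3 libraries were at 3763, 4329 and 4905 CPM at C1 and at 2074, 2150 and 2334 CPM at C5. In vorinostat they were at 4016, 3328 and 5318 CPM at C1, at 2074, 1863 and 2464 CPM at C4 and at 2109, 2269 and 2811 CPM at C5. The mean was also lower at C5 in panobinostat (4540 against 5319 CPM), tacedinaline (4086 against 4824 CPM) and mocetinostat (3928 against 4373 CPM), and there the libraries of C1 and C5 overlapped. In scriptaid the libraries were at 3613, 3795 and 2839 CPM at C1 and at 6320, 5354 and 6750 CPM at C3. They were at 5851, 4637 and 4487 CPM at C4 and at 2399, 2490 and 2904 CPM at C5. The C3 libraries all lay above the C1 libraries, while C5 overlapped C1 through batch 3. In trichostatin A the libraries were at 5210, 5155 and 4153 CPM at C1 and at 3832, 5168 and 5367 CPM at C5, and they overlapped. In valproic acid the means were 5001 CPM (SD 41.5, n = 3) and 5942 CPM (SD 707, n = 3), and every C5 library lay above every C1 library.

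**Figure D1:**
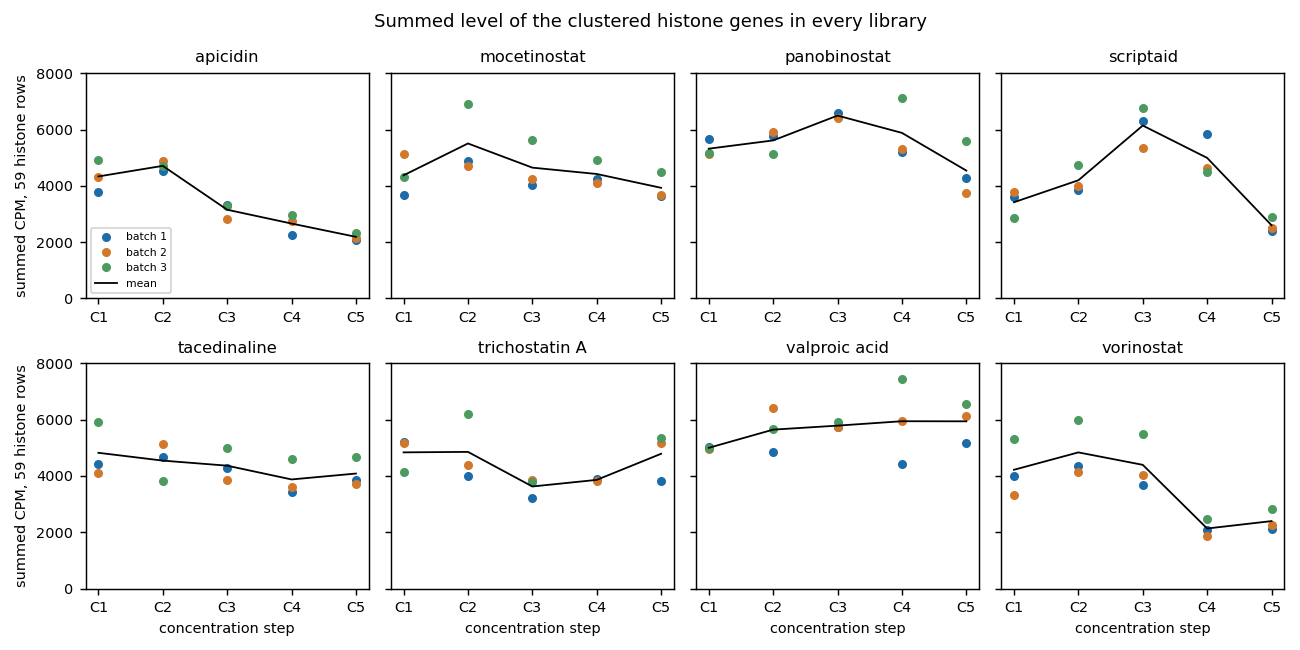
Summed level of the 59 histone rows (y axis, CPM on a linear scale) at C1 to C5 (x axis) in each of the 8 chemicals, with 1 point per library coloured by HepaRG batch and a line through the group means. Apicidin and vorinostat ended at group means of 2186 and 2397 CPM, and scriptaid peaked at C3 with a mean of 6141 CPM before ending at 2598 CPM.

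At C5 the members were called mostly as falling in apicidin, vorinostat and scriptaid. In apicidin 23 of 43 tested rows fell and 1 rose, whereas 15.0% of all tested rows fell and 13.8% rose. In vorinostat 23 of 39 fell and 4 rose, beside 24.9% and 22.7% of all rows. In scriptaid 14 of 42 fell and 3 rose, beside 17.0% and 12.8% of all rows. The median change over the members was -1.04 in apicidin, -0.97 in vorinostat and -0.58 in scriptaid, while the median over all rows was 0.01, 0.00 and 0.01. The scriptaid total of 17 called members was 11 without batch 1 and 8 without batch 2. At C5 the summed hepatocyte markers were also lower, at 19830 CPM in apicidin, 7392 CPM in scriptaid and 5414 CPM in vorinostat, against 59270, 45230 and 44110 CPM at C1, and their part in these results was not tested. They were lower at C5 also where fewer members fell, with means of 8896 CPM in mocetinostat, 4011 CPM in tacedinaline, 26560 CPM in panobinostat and 19790 CPM in valproic acid, against 65110, 49520, 49970 and 52910 CPM at C1. In trichostatin A the means were 43210 CPM at C1 and 44260 CPM at C5, and the C1 mean holds the library that stood apart (14040 CPM). The C5 libraries, at 38670, 43970 and 50130 CPM, all lay below the C1 libraries of batches 1 and 2 (56050 and 59530 CPM). The mean summed biliary and progenitor markers were higher at C5 than at C1 in all 8 chemicals, from 87.1 to 212 CPM in apicidin, 89.7 to 134 CPM in scriptaid and 69.0 to 89.0 CPM in vorinostat. Their C1 and C5 libraries overlapped in mocetinostat, tacedinaline and trichostatin A. The mean summed mesenchymal markers were lower at C5 in all 8 chemicals, from 104 to 51.4 CPM in apicidin, 104 to 69.0 CPM in scriptaid and 109 to 60.6 CPM in vorinostat.

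In the benzamides mocetinostat and tacedinaline members were called in both directions, at shares near or below those of all rows. In mocetinostat 5 of 44 tested members rose and 4 fell, while 14.8% and 15.7% of all rows did. With library totals as the only scaling 5 rose and 2 fell, and with relative log expression scaling 5 rose and 5 fell. In tacedinaline 7 of 42 rose and 8 fell, beside 18.7% and 20.1% of all rows. Their member medians were -0.19 and -0.18, and both turned to 0.01 with library totals as the only scaling. The 9 calls of mocetinostat were 5 without batch 1 and 1 without batch 2.

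Panobinostat, valproic acid and trichostatin A gave at most 6 calls each. In panobinostat 6 of 41 members fell, beside 9.46% of all rows, and 0 rose, beside 6.77%, with 2 rises at an unadjusted p under 0.05 and 2 called by DESeq2. With relative log expression scaling 1 rose and 6 fell, and with library totals only 2 rose and 4 fell. Without batch 1 the panobinostat count was 2. In valproic acid 3 of 43 members rose, beside 4.84% of all rows, and 0 fell, beside 6.22%, with 2 falls at an unadjusted p under 0.05 and 1 called by DESeq2. The valproic acid count was 1, 1 and 0 without batch 1, 2 or 3, and it was 6 when low rows were kept and also with library totals only. In trichostatin A edgeR called 0 of 43 members, beside 0% rising and 0.0154% falling of all rows. There 2 members had an unadjusted p under 0.05, and DESeq2 called 1, as did the edgeR fit without batch 3, which leaves out the C1 library that stood apart. The member medians were -0.22, 0.23 and 0.00 in panobinostat, valproic acid and trichostatin A.

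The inhibitors also differ in their chemistry, but not at matched concentrations. By their known structures trichostatin A, vorinostat, panobinostat and scriptaid are hydroxamic acids, mocetinostat and tacedinaline are benzamides, apicidin is a cyclic tetrapeptide and valproic acid is a carboxylic acid. Side by side, the hydroxamic acids had C5 member medians from -0.97 (vorinostat at 23.5 µM) to 0.00 (trichostatin A at 1.52 µM), and no pair of compounds was compared, because their concentrations differed. In a fit of all 118 libraries, in which each chemical entered at its own C1 and C5, so that concentrations were not matched, the C5 against C1 change differed between the 8 chemicals at an adjusted p under 0.05 in 24 of 50 tested members, beside 30.3% of all rows. The count was 12 without batch 2. At C5 no member was called as rising in any chemical and as falling in another, and the share of all rows was not taken. At C4 HIST2H4B rose in scriptaid (1.08) and valproic acid (0.64) and fell in apicidin (-0.60) and vorinostat (-1.41). The valproic acid call was lost whichever batch was left out. HIST1H4A rose at C4 in scriptaid (2.43) and fell in apicidin (-0.77). By trend HIST2H3C rose in valproic acid (0.89) and fell in apicidin (-1.96) and vorinostat (-2.59).

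**Figure D2:**
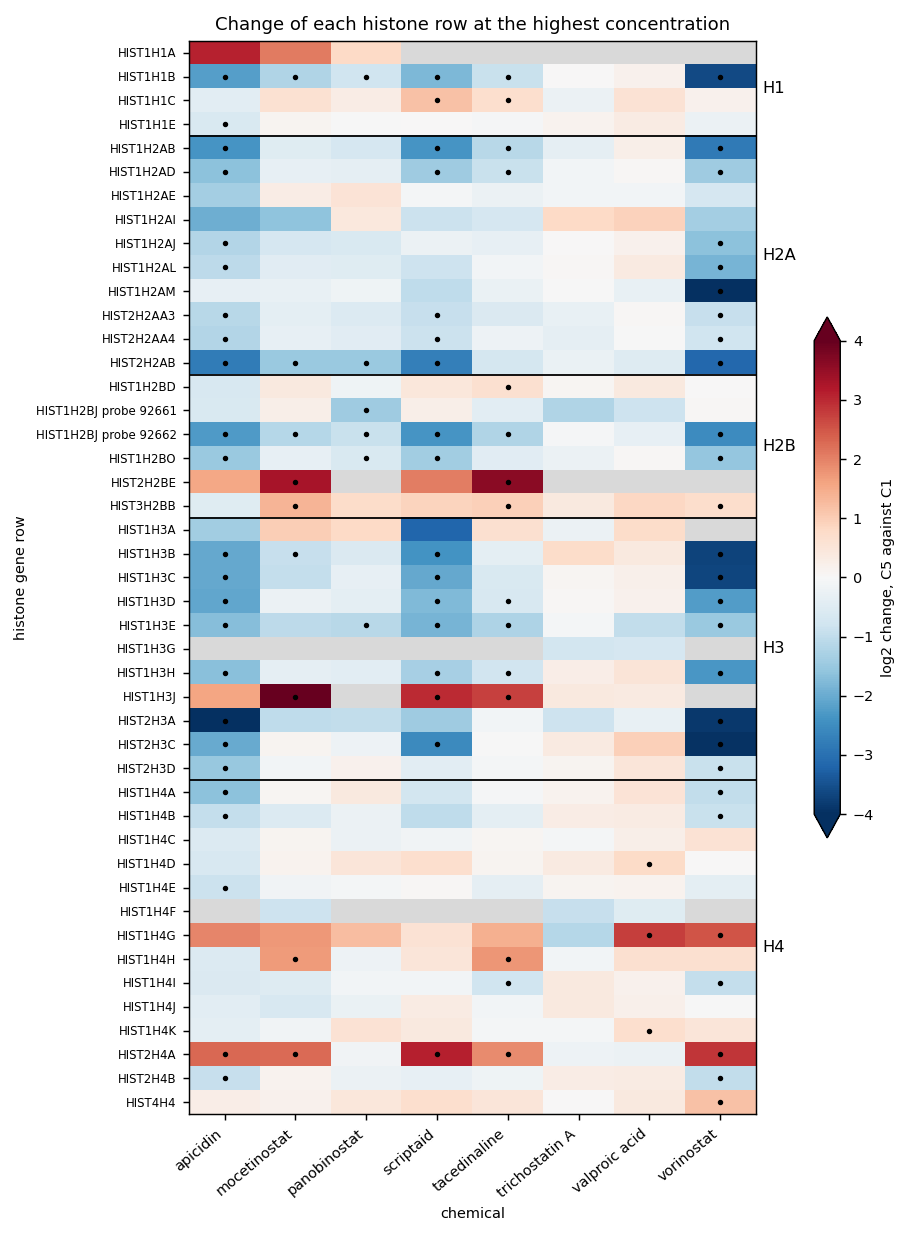
Log2 change of each tested histone row at C5 against C1 (colour, blue for lower and red for higher, cut at 4 in both directions) in the 8 chemicals (columns), with rows ordered by histone. Dots mark called rows and grey marks rows not tested in that chemical; in apicidin, scriptaid and vorinostat 7, 5 and 8 of 10 H2A rows were called as falling.

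Summed over the 8 chemicals, 13.4% of the tests of all rows at C5 were called as falling and 11.6% as rising. The H3 rows fell in 27 of 79 tests (34.2%) and rose in 3, and the H2A rows fell in 24 of 80 (30.0%) and rose in 0. The H2A rows had 0 rises at an unadjusted p under 0.05, and DESeq2 called 0. The H2B rows fell in 11 (25%) and rose in 6 of 44 tests, and the H1 rows fell in 7 (25.9%) and rose in 2 of 27. All 3 H3 rises were those of HIST1H3J, and 2 of the 6 H2B rises were those of HIST2H2BE. HIST1H3J and HIST2H2BE could pass the filter through a high group, so their rises are a description without a test. Another 3 H2B rises were those of HIST3H2BB, which was tested in all 8 chemicals (mean 70.6 CPM). The H4 rows rose in 12 and fell in 9 (8.41%) of 107 tests. Of the H4 rises, 5 were those of HIST2H4A and 2 those of HIST1H4G, low rows that could pass the filter through a high group. These tests are not independent, since a row was tested once per chemical and copies share sequence, and the difference between histone types was not tested. In vorinostat all 8 tested H3 rows fell, with a median of -3.00, while the 13 H4 rows had a median of 0.02. In scriptaid the H3 median was -1.82 and the H4 median was 0.32. In apicidin the H3, H2A and H4 medians were -1.85, -1.27 and -0.55.

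**Figure D3:**
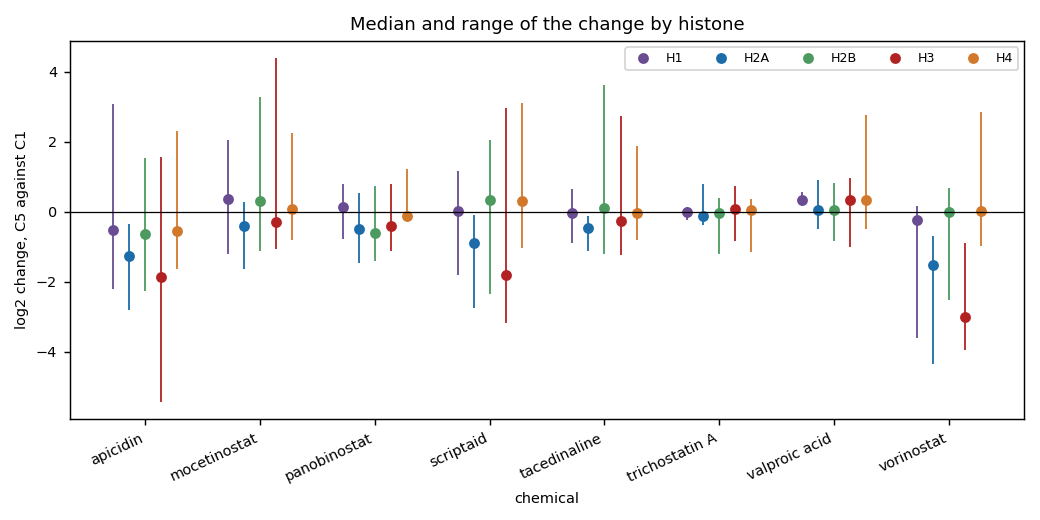
Median (point) and range (line) of the log2 change at C5 against C1 over the tested rows of each histone (colours) in each of the 8 chemicals (x axis). The H3 medians in apicidin, scriptaid and vorinostat lie at -1.85, -1.82 and -3.00, and the H4 medians there lie at -0.55, 0.32 and 0.02.

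Among the linker histones, HIST1H1B, which encodes the H1.5 linker, fell at C5 in 6 chemicals. In vorinostat it was at 108.5, 99.9 and 193 CPM at C1 and at 9.00, 11.4 and 9.94 CPM at C5. The C5 libraries lay far below all C1 libraries, and the change was -3.60 (SE 0.37, edgeR adjusted p = 8.15e-10). In apicidin HIST1H1B went from 105, 151 and 179 CPM to 28.4, 22.98 and 42.4 CPM, a change of -2.20 (SE 0.29, edgeR adjusted p = 6.45e-06). In scriptaid it was at 115, 102 and 86.1 CPM at C1, at 221, 168 and 286 CPM at C3, at 354.5, 174.5 and 122.5 CPM at C4, and at 22.9, 32.9 and 28.0 CPM at C5. The C3 and C4 libraries lay above and the C5 libraries below all C1 libraries, and the C5 change was -1.80 (SE 0.34, edgeR adjusted p = 0.00064). Its smaller falls were -1.20 in mocetinostat, -0.90 in tacedinaline and -0.78 in panobinostat. The mocetinostat call was lost without batch 2 (-0.93) and the panobinostat call without batch 1 (-0.72), and both were lost with library totals only.

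Of the other named H1 genes, HIST1H1E fell in 1 chemical and HIST1H1C rose in 2. HIST1H1E, which encodes the H1.4 linker, fell in apicidin, from 941.5, 1015 and 1163 CPM to 657, 677 and 688 CPM. Its change was -0.62 (SE 0.13, edgeR adjusted p = 0.00079), and the call was lost without batch 3 (-0.56) and with library totals only. HIST1H1C, which encodes H1.2 and also gives polyadenylated transcripts, rose in scriptaid, from 116, 128 and 91.9 CPM to 204, 277 and 243 CPM. That change was 1.16 (SE 0.33, edgeR adjusted p = 0.0121), and it was lost without batch 1 or 2. In tacedinaline HIST1H1C rose by 0.67 (SE 0.17, edgeR adjusted p = 0.00168) and lost its call without batch 2.

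HIST2H2AB, which encodes an H2A protein, fell at C5 in 5 chemicals. In panobinostat its libraries were at 68.5, 70.2 and 71.2 CPM at C1 and at 26.2, 14.7 and 35.8 CPM at C5. They did not overlap, and the change was -1.47 (SE 0.32, edgeR adjusted p = 0.00215). In apicidin HIST2H2AB went from 38.0, 39.0 and 49.2 CPM to 5.26, 5.62 and 6.95 CPM (-2.81, SE 0.27, edgeR adjusted p = 1.5e-07). In vorinostat it went from 43.7, 41.4 and 81.5 CPM to 3.27, 8.08 and 5.26 CPM (-3.15, SE 0.36, edgeR adjusted p = 9.14e-09). It fell also in scriptaid by 2.75 on the log2 scale and in mocetinostat by 1.49, and the latter call was lost without batch 2. In trichostatin A it was at 66.7, 53.2 and 5.38 CPM at C1, where the lowest library is the one that stood apart. HIST2H2AA3 and HIST2H2AA4, close copies that encode the same H2A, fell together in apicidin (-1.10 and -1.18), scriptaid (-0.92 and -0.85) and vorinostat (-0.94 and -0.81). Their scriptaid calls were lost without batch 1 or 2, and that of HIST2H2AA4 with library totals only. HIST1H2AM, a low row, had 48 counts over the C1 group and 1 over the C5 group of vorinostat, a ratio of 26.8 (95% exact counting interval 4.59 to 1082, counting error only).

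HIST1H2BJ, an H2B gene, had 2 probes. At C5 probe 92662 fell in 6 chemicals, and probe 92661 in 1. In scriptaid probe 92662 went from 175, 171 and 121 CPM at C1 to 25.1, 25.3 and 38.2 CPM at C5, with no overlap. The change was -2.35 (SE 0.35, edgeR adjusted p = 6.42e-05). Probe 92661 was at 33.2, 46.5 and 35.0 CPM at C1 and at 34.0, 30.1 and 67.7 CPM at C5 of scriptaid, with overlapping groups. In vorinostat probe 92662 fell by 2.52 (SE 0.28, edgeR adjusted p = 3.22e-09), while probe 92661 had means of 38.4 and 36.9 CPM. In panobinostat both fell, probe 92661 by 1.41 (SE 0.30, edgeR adjusted p = 0.00181) and probe 92662 by 0.89 (SE 0.22, edgeR adjusted p = 0.00727). Without batch 1 the latter call was lost (-0.81). At lower concentrations probe 92661 was called more often. At C4 it fell in apicidin (-1.05), tacedinaline (-0.72), valproic acid (-0.94) and vorinostat (-1.26), and probe 92662 fell there in apicidin (-1.63), tacedinaline (-1.06) and vorinostat (-2.11). By trend probe 92661 fell in 3 chemicals and probe 92662 in 5. HIST1H2BO, another H2B gene, fell in apicidin (-1.50), vorinostat (-1.55), scriptaid (-1.40) and panobinostat (-0.61). The panobinostat call was lost without batch 1 or 2 and with library totals only.

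HIST2H2BE, an H2B gene also known to give polyadenylated transcripts, had higher levels at C5 than at C1 in both benzamides. It passed the filter also in apicidin and scriptaid, where its fitted trends from C1 to C5 were upward too (1.78 and 1.39) and were not called. In tacedinaline it was at 0, 0.885 and 0.491 CPM at C1 and at 6.00, 13.1 and 1.65 CPM at C5. In mocetinostat it was at 0.525, 0.227 and 1.62 CPM at C1 and at 10.9, 8.26 and 3.06 CPM at C5. The row could pass the filter through its high group, so the distance between C1 and C5 is a description without a test. The C1 levels rest on 5 and 9 counts over 3 libraries. HIST1H2BD, another of the genes with polyadenylated forms, rose by 0.64 in tacedinaline (SE 0.19, edgeR adjusted p = 0.00485), a call lost without batch 1 or 2. HIST1H2BK had a median count of 0 and was not tested.

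HIST1H3E, an H3 gene, had a falling trend in the most chemicals, 6. In apicidin its libraries were at 25.01, 34.5 and 27.8 CPM at C1 and at 11.8, 5.38 and 9.68 CPM at C5, without overlap. In tacedinaline it went from 40.0, 29.8 and 30.7 CPM to 15.5, 17.2 and 7.83 CPM, without overlap (-1.23, SE 0.35, edgeR adjusted p = 0.00421). In vorinostat HIST1H3E went from 28.8, 29.4 and 30.2 CPM to 6.55, 15.2 and 6.43 CPM, also without overlap (-1.49, SE 0.33, edgeR adjusted p = 0.000343). The apicidin call (-1.69) was lost without batch 2, the panobinostat call (-1.12) without batch 3 and the scriptaid call (-1.87) without batch 1 or 2. HIST2H3A, a low H3 row, went in apicidin from 61 counts over the C1 group to 1 count over the C5 group, a ratio of 57.3 (95% exact counting interval 9.91 to 2300, counting error only). In vorinostat it had 64 counts at C1 and 2 at C5, a ratio of 17.9 (95% exact counting interval 4.76 to 151). HIST1H3J, an H3 gene of low level, went in mocetinostat from 1.31, 0.227 and 0 CPM at C1 to 9.38, 11.6 and 11.6 CPM at C5. In tacedinaline it was at 2.50, 0.590 and 1.72 CPM at C1 and at 15.5, 5.86 and 7.42 CPM at C5. In scriptaid it was at 0, 0.477 and 2.58 CPM at C1 and at 8.07, 3.69 and 12.6 CPM at C5. HIST1H3J could pass the filter through its high group, so these values are a description without a test.

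HIST2H4A and HIST2H4B encode the same H4 protein, and their probes gave opposite changes in apicidin and vorinostat. A probe for one copy may bind the message of the other, so these are changes of probes, and the gene behind each is uncertain. In apicidin HIST2H4A was at 3.99, 2.13 and 4.32 CPM at C1 and at 13.9, 24.7 and 12.9 CPM at C5. The groups did not overlap, and the change was 2.30 (SE 0.55, edgeR adjusted p = 0.00318). HIST2H4B was at 409, 432 and 553 CPM at C1 and at 241, 218.5 and 272 CPM at C5 of apicidin, a fall of 0.92 (SE 0.16, edgeR adjusted p = 0.000124). In vorinostat HIST2H4A went from 3.87, 2.01 and 1.25 CPM at C1 to 22.1, 18.6 and 6.43 CPM at C5. The row could pass the filter there through its high group, so this rise is a description without a test. HIST2H4B fell there by 0.98 (SE 0.20, edgeR adjusted p = 9.35e-05). HIST2H4A was called as rising in 5 chemicals, also in scriptaid (3.11), mocetinostat (2.26) and tacedinaline (1.89). The mocetinostat call was lost without batch 1 or 2. HIST2H4A was a low row (median count 14), and where its C1 libraries lay under the filter it could pass through its high group. HIST2H4B was called at C5 only in apicidin and vorinostat, and its means in tacedinaline were 546 CPM at C1 and 466 CPM at C5. HIST1H4G, a low H4 row (median count 8), was called as rising in valproic acid (2.77) and vorinostat (2.50). It could pass the filter through its high group, so these changes are a description without a test. The valproic acid call was lost whichever of the 3 batches was left out, and the vorinostat call without batch 1. HIST4H4, which lies outside the large clusters and also gives polyadenylated RNA, rose in vorinostat from 8.86, 15.6 and 13.7 CPM to 26.2, 21.4 and 35.1 CPM (1.18, SE 0.35, edgeR adjusted p = 0.00528), a call lost without batch 1 or 3.

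**Figure D4:**
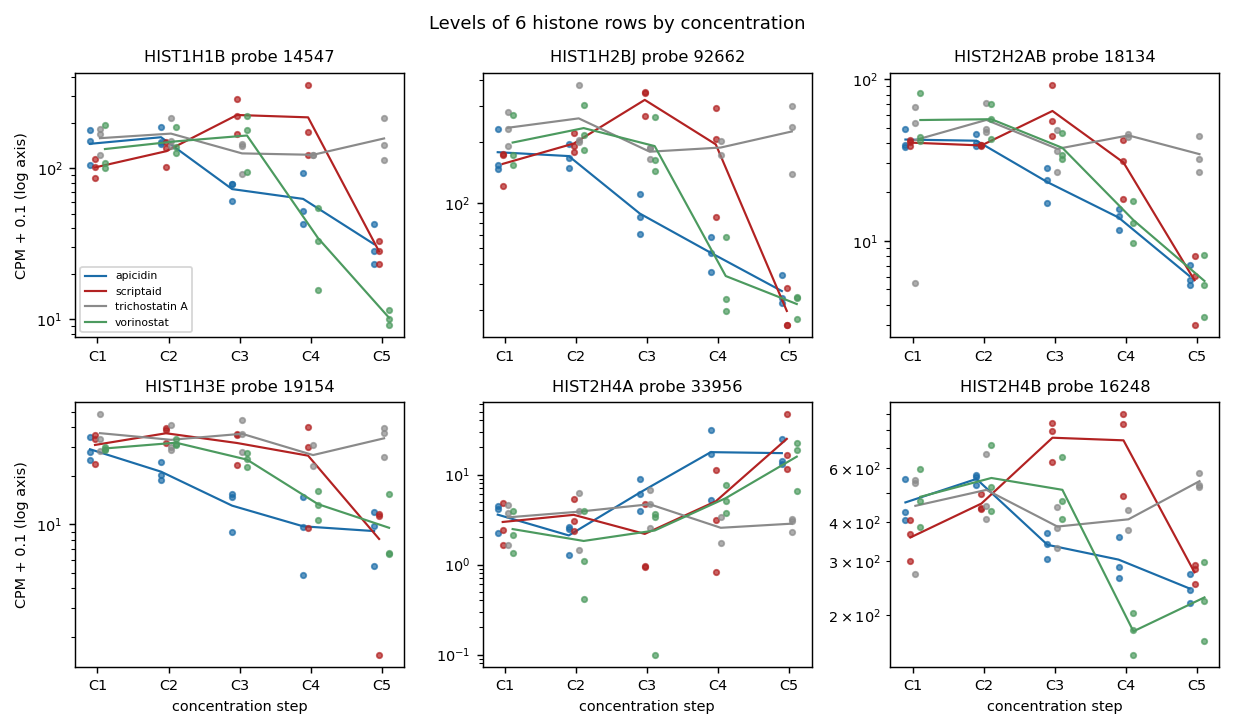
Levels of 6 histone rows (y axis, CPM plus 0.1 on a log axis) at C1 to C5 (x axis) in apicidin, scriptaid, trichostatin A and vorinostat, with 1 point per library and lines through the group means. HIST1H1B, HIST1H2BJ probe 92662, HIST2H2AB and HIST1H3E end lower at C5 in apicidin, scriptaid and vorinostat, HIST2H4A ends higher there, and HIST1H1B passes through 221, 168 and 286 CPM at C3 of scriptaid.

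Calls were few or absent at C2 and more frequent at C3 and C4, for the members and for all rows alike. At C2 edgeR called 0 of 337 tests over the 8 chemicals, beside 0.0865% of all rows, with 16 at an unadjusted p under 0.05, and DESeq2 called 1. Without batch 3, 10 were called at C2. At C3 there were 19 calls (15 falling and 4 rising) in 337 tests, a share near the 5.98% of all rows, and the count was 1 without batch 2. At C4 there were 69 calls, 55 of them falling, beside 16.0% of all rows. In apicidin 13 of 43 members fell already at C3, beside 8.39% of all rows, among them HIST1H1B (-0.99), HIST1H3E (-1.17) and HIST2H2AB (-0.87). This count was 1 without batch 2 and 3 without batch 3. At C4 of apicidin 20 fell, beside 11.2% of all rows, and 13 without batch 3. In vorinostat 22 of 39 members fell at C4, beside 16.7% of all rows, whereas at C3 edgeR called 0 as falling and HIST1H4K as rising (0.63, edgeR adjusted p = 0.0279). At C3 of vorinostat 1 member had a fall at an unadjusted p under 0.05, and DESeq2 called 0 as falling, while edgeR with the batch as a block called 1.

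In scriptaid the intermediate concentrations went the other way. At C3 (44.5 µM) 38 of 42 tested members lay above 0, with a median change of 0.93 against 0.01 over all rows. In either direction 27 members had an unadjusted p under 0.05, 26 of them as rises, beside 1334 of all 12790 rows. By edgeR 3 members rose, HIST1H4A (2.27), HIST2H3D (1.23) and HIST2H4B (1.08), beside 0.461% of all rows. DESeq2 called 12, a count given without its share of all rows. HIST1H4A, HIST2H3C, HIST2H3D, HIST1H4K, HIST3H2BB and probe 92661 of HIST1H2BJ were named after their values were seen. HIST1H4A, an H4 gene, was at 17.5, 18.1 and 13.8 CPM at C1, at 65.8, 74.8 and 97.5 CPM at C3 and at 8.50, 13.6 and 5.80 CPM at C5. Its C3 libraries lay above all C1 libraries, and all its C5 libraries lay below them. The edgeR count at C3 was 0 without batch 1, 0 without batch 2 and 9 without batch 3. At C4 of scriptaid 3 members rose, beside 2.20% of all rows, and the count was 1 without batch 1, 1 without batch 2 and 8 without batch 3, the batch of the C4 library that stood apart. The hepatocyte markers were at 20790 CPM at C3 of scriptaid, and their part was not tested.

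A straight line on log2 concentration was also tested over all 5 concentrations. In apicidin 28 members fell and 2 rose by trend, beside 17.2% of all rows in each direction. In vorinostat 22 fell and 3 rose, beside 23.0% and 24.4%. In scriptaid 0 fell and 2 rose, beside 6.18% and 6.83%. There 0 members had a falling slope at an unadjusted p under 0.05, DESeq2 called 0, and the 2 rises were 0, 0 and 1 without batch 1, 2 or 3. In mocetinostat 7 fell and 6 rose, beside 17.7% and 17.9%, and the 13 calls were 5 without batch 2 and 5 without batch 3. In tacedinaline 8 fell and 7 rose, beside 21.5% and 21.8%. In panobinostat 5 fell and 2 rose, beside 9.35% and 8.06%, and the 7 calls were 3 without batch 1 and 4 without batch 3. In valproic acid 2 fell and 1 rose, beside 7.73% and 7.16%, and the 3 calls were 1 without batch 2, 1 without batch 3 and 9 with library totals only. In trichostatin A edgeR called 0, beside 0.0462% falling and 0.0154% rising, with 1 at an unadjusted p under 0.05 and 1 called by DESeq2. By trend HIST1H1B, HIST1H2BJ probe 92662 and HIST2H2AB fell in 5 chemicals each, and the low row HIST2H4A rose in 5.

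Of 34 rows for 32 genes of the DNA replication machinery, 12 of 27 tested fell and 0 rose at C5 of apicidin, beside 15.0% and 13.8% of all rows. In vorinostat 13 of 27 fell and 1 rose, beside 24.9% and 22.7%, and the medians were -1.14 and -1.17. In scriptaid 8 of 30 fell and 3 rose, beside 17.0% and 12.8%, with a median of 0.13, and by trend 0 fell and 3 rose there. Their median was 0.46 in mocetinostat and 0.26 in tacedinaline. TYMS, thymidylate synthase, fell in 7 chemicals, by 4.38 (SE 0.26, edgeR adjusted p = 1.65e-15) in vorinostat, 3.63 in scriptaid and 2.64 in tacedinaline. MKI67, a marker of cycling cells, fell by 3.88 in vorinostat, 3.09 in scriptaid and 2.77 in apicidin. PCNA, the sliding clamp of DNA polymerases, was called in none, with changes from -0.89 to 1.12. In trichostatin A the mean of TYMS was 1284 CPM at C1 and 1103 CPM at C5. The summed level of these rows went from 1962 to 635.9 CPM in apicidin, from 2183 to 467 CPM in vorinostat, and from 1868 CPM at C1 to 2217 CPM at C3 and 717.5 CPM at C5 in scriptaid. Whether this accounts for the changes of the histone rows was not tested.

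Over the 8 chemicals, the factors that make and process histone messages rose in 13 of 93 tests at C5 and fell in 0, beside 11.6% and 13.4% of all tests, with 1 fall at an unadjusted p under 0.05 and 0 by DESeq2. By trend they rose in 14 of 93 and fell in 1. The 13 rises were 7 without batch 2 and 8 without batch 3. SLBP, which binds the histone stem-loop, rose in mocetinostat (1.81, SE 0.42, edgeR adjusted p = 0.00381), tacedinaline (1.43, SE 0.24, edgeR adjusted p = 3.97e-06) and valproic acid (0.73). Its means in apicidin were 33.4 and 29.9 CPM at C1 and C5. NPAT, the coactivator of histone transcription, rose in tacedinaline (0.80, SE 0.26, edgeR adjusted p = 0.0115). ERI1, the exonuclease that trims the stem-loop, rose in scriptaid (1.07), tacedinaline (1.02) and vorinostat (0.81). Histone chaperones rose in 6 and fell in 7 of 96 tests, beside the same 11.6% and 13.4%. The chaperone gene ASF1B fell in apicidin (-1.63), panobinostat (-0.83) and vorinostat (-2.58) and rose in mocetinostat (1.05) and tacedinaline (0.88). CHAF1A, the large subunit of chromatin assembly factor 1, rose in mocetinostat (1.54) and valproic acid (1.09) and fell in vorinostat (-3.39).

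Variant histone genes, which are expressed outside S phase, rose in 9 and fell in 4 of 60 tests at C5, beside 11.6% and 13.4% of all tests over the 8 chemicals. H1F0, the linker histone of resting cells, rose in mocetinostat (1.53), scriptaid (1.91), tacedinaline (0.98) and vorinostat (1.38), and H2AFV, an H2A.Z gene, rose in the same 4 chemicals by 1.51, 1.57, 1.93 and 1.65.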

How the data were processed

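RNA of 118 HepaRG cell lysates was measured by TempO-Seq. The deposited table holds raw read counts per probe, 1 column per library, as the authors counted them. The submitters' processing notes name bcl2fastq 2.20.422, fastp 0.23.2, STAR 2.7.10b and DESeq2 1.38.0, and the genome build was not given in the sources used here. Reads carry no molecular identifiers here, so counting intervals cover counting error only. 1 row with missing values was left out. Groups were taken from the sample labels.

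Counts were tested with edgeR 4.0.16 (R 4.3.3) in each chemical separately over its 5 concentrations, after filterByExpr and scaling by the trimmed mean of M values, and p-values were adjusted by Benjamini-Hochberg over all rows tested. C2 to C5 were each compared with C1, and a slope on log2 concentration was fitted. A joint fit of all libraries tested whether the C5 change differed between chemicals, without a fold threshold. Levels are CPM scaled over all 118 libraries. The chemicals lay on 2 plates, 5 on one and 3 on the other, so plate and chemical cannot be told apart in the joint fit. Replicate numbers mark the HepaRG batch per the labels. Deviations from the group means correlated with a median r of 0.0463 in 232 same-batch pairs and -0.0208 in 464 different-batch pairs of groups. Alternatives were DESeq2 1.42.0, relative log expression scaling, library totals only, no filter, the batch as a block and leaving out each batch. The fit was tested on simulated counts.

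The members and lists were chosen with earlier results of these data known. Named members were the called rows with the largest rise and fall at C5 in each chemical, those called by trend one way in at least 5 chemicals, the 6 with the highest mean CPM, and genes known to give polyadenylated transcripts. Other genes named were SLBP, NPAT, PCNA, MKI67 and the 2 of each list called in the most chemicals. Tables and figures were made with Python 3.11.15, pandas 2.3.3, scipy 1.17.1 and matplotlib 3.10.9.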

Additional observations from a re-analysis of the deposited data

Results flagged for a closer look

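The C5 against C1 change of 10 named histone rows differed between the 8 chemicals in the joint edgeR fit of all libraries, at Benjamini-Hochberg adjusted p-values over all rows tested. The adjusted p was 1.45e-08 for HIST1H1B, 3.37e-08 for HIST1H2BJ probe 92662, 3.51e-07 for HIST1H2BO and 2.25e-06 for HIST2H2AB. For HIST2H4B it was 0.000119, for HIST2H2AA3 0.00711, for HIST2H3A 0.00734, for HIST2H4A 0.014, for HIST1H1C 0.0183 and for HIST2H2AA4 0.0256. Over all rows 30.3% differed at an adjusted p under 0.05. These histone rows were named in part for their called changes in the same libraries, so the differences are no separate support. The chemicals were given at different concentrations and on 2 plates. Single libraries were not tested as outliers, since no group held more than 3.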

How the results depend on the processing

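None of the 23 counts and 54 called values of named members reversed under any alternative run. With 3 libraries a group, leaving out 1 batch moved the counts most. The counts at C5 ranged from 1 to 8 in mocetinostat, 2 to 7 in panobinostat, 8 to 22 in scriptaid, 0 to 1 in trichostatin A and 0 to 1 in valproic acid. By trend they ranged from 5 to 11 in mocetinostat, 3 to 5 in panobinostat, 0 to 1 in scriptaid and 1 to 4 in valproic acid. The summed counts ranged from 0 to 10 at C2 and from 1 to 16 at C3, those differing between chemicals from 12 to 22, and those of the histone mRNA factors from 7 to 10. With the batch as a block (the paired analysis) the scriptaid trend count went from 2 to 1, the valproic acid C4 count from 3 to 5 and the vorinostat C3 count from 1 to 2, and no other count at C3 to C5 or by trend moved by over 1.5 times. DESeq2 gave 1 at C5 and 1 by trend in trichostatin A, 5 by trend in valproic acid and 1 at C2. Without the filter 1 was called at C5 in trichostatin A and 6 in valproic acid, and with library totals only valproic acid had 6 at C5 and 9 by trend. That scaling put the median change of all rows at 0.10 in apicidin, 0.27 in mocetinostat, 0.16 in scriptaid, 0.22 in tacedinaline and 0.16 in valproic acid. The cause of these moves was not tested. Of the 54 values, 31 kept their call under every alternative, and 18 of the other 23 lost it only when a batch was left out. The 54 include 3 values of HIST1H3J, 2 of HIST2H2BE, 5 of the low row HIST2H4A and 2 of the low row HIST1H4G. These rows could pass the filter through a high group, so keeping their call is no support. Counts per chemical at C3 and C4 under these alternatives were added after seeing the data. Depth limits the low rows, such as HIST2H2BE with 5 counts over the C1 group of tacedinaline.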
